A study of Mus musculus with 8 samples.

Results

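The genes described here encode myeloperoxidase (Mpo), the neutrophil serine proteases elastase (Elane), proteinase 3 (Prtn3) and cathepsin G (Ctsg), and the membrane protein Ms4a3. They were followed as every probe that the array annotation gave to 1 of these 5 symbols. This gave 9 of the 45281 probes on the array, for 5 of its 19057 gene symbols: 4 probes for Mpo, 2 for Ms4a3 and 1 each for Elane, Prtn3 and Ctsg. All 9 passed the filter on dim probes, which asked for 2 or more arrays above background (detection p below 0.05). Of the 9, 8 were above background on all 8 arrays and Ms4a3 probe 2 on 7, so none entered through 1 group alone.

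RNA came from mouse MLL-AF9 acute myeloid leukaemia, taken from the bone marrow of animals that had received the leukaemia by a quaternary transplant. Cells of the C57BL/6 Actin-dsRed background were sorted as dsRed+, Hoechst low, c-kit high, CD34+ and Fc gamma RII high, the fraction the labels call leukaemia stem cells. They carried a short hairpin RNA against luciferase (Luc control, replicates 1 to 3), or 1 of 2 hairpins against the integrin gene Itgb3, Itgb3-17 (replicates 1 to 3) or Itgb3-20 (replicates 4 and 5). Total RNA was hybridised to 1-colour Illumina bead arrays. All groups share the oncogene, the transplant history and the sort, and the labels give neither the animals' age nor whether arrays came from separate animals. The p-values thus reflect only how much these arrays differ within a group, a spread that could be technical, and precision is limited by how few arrays there are.

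Primary, or azurophil, granules are formed at the promyelocyte stage. Their proteins are made mainly by granulocyte-macrophage progenitors, the normal counterparts of the sorted cells, and by promyelocytes. Myeloperoxidase is a haem enzyme that turns hydrogen peroxide and chloride into hypochlorous acid. Elastase, proteinase 3 and cathepsin G are stored beside it as active proteases after cathepsin C has removed a dipeptide from each proenzyme, and PU.1, CCAAT/enhancer-binding proteins, RUNX1 with its partner CBFB, and MYB are known activators of these genes.

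Mpo was higher with both hairpins on 3 of its 4 probes, and Elane was higher over both hairpins together, while Prtn3, Ctsg and Ms4a3 did not pass the test. Myeloperoxidase mRNA was about 1.98-fold to 2.9-fold above control and elastase mRNA about 1.48-fold. In knockdown minus control, which weights the 2 hairpin groups equally, 4 of the 9 probes were called higher and 0 lower by limma at an adjusted p under 0.05. Among all 13315 tested probes 8.93% were called higher. The median log2 difference was 0.40 over the 9 probes and 0.02 over all tested probes, of which 1189 were called higher and 1044 lower. On the same 4 probes every knockdown array lay above every control array, as it did for 11.5% of all tested probes. In these bulk samples, more cells that make an mRNA and more mRNA per cell cannot be told apart.

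**Figure D1:**
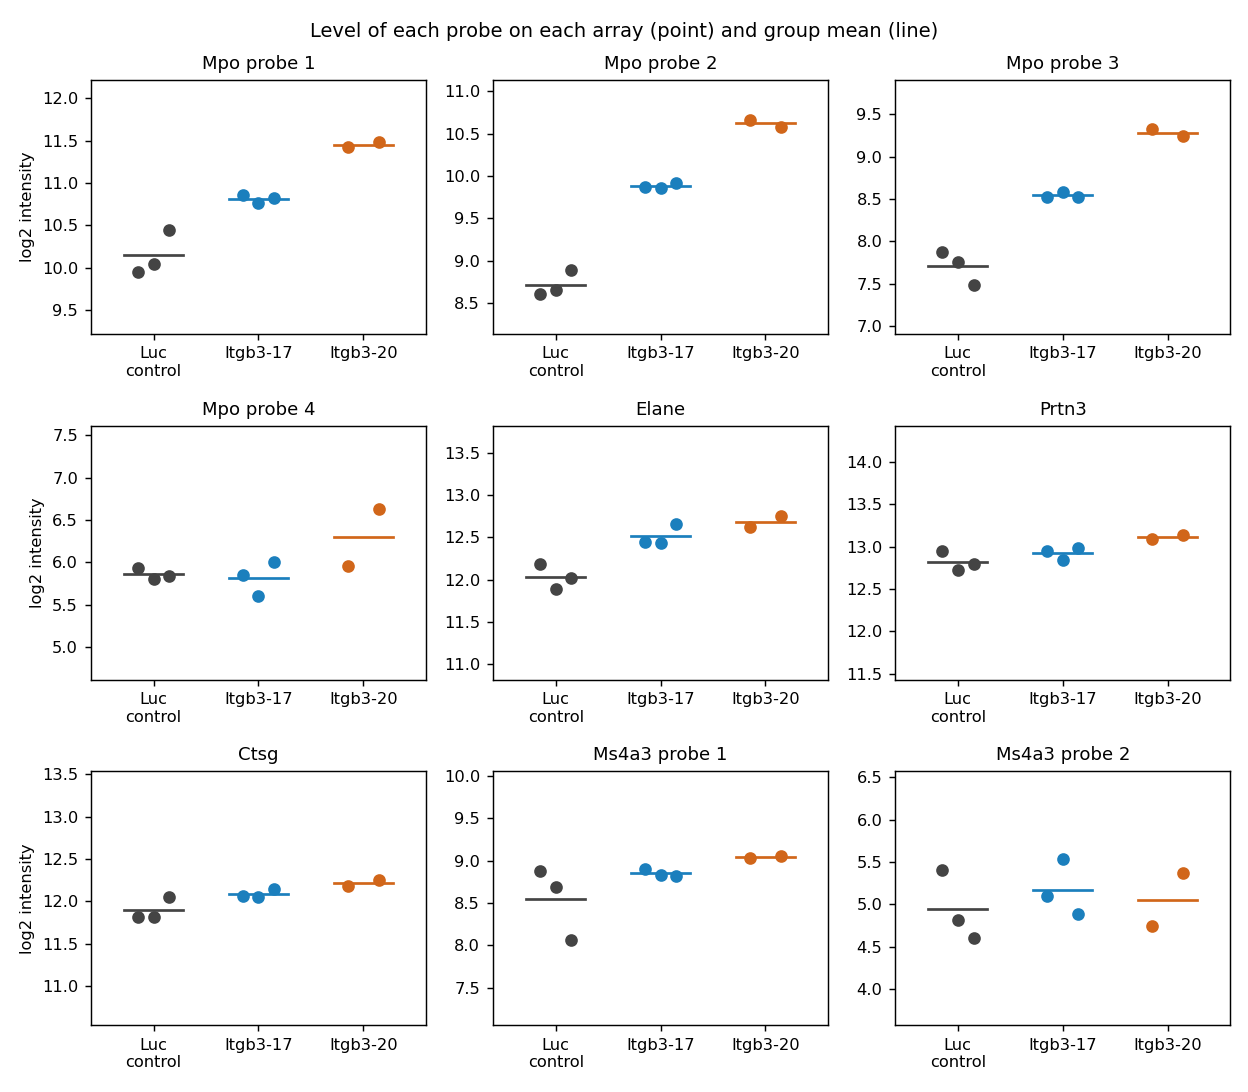
Level of each of the 9 probes (log2 intensity after background correction and quantile normalization, vertical axis, all panels spanning the same range) on each array, by group; points are arrays and lines are group means. All knockdown arrays lie above all controls for Mpo probes 1 to 3 and for Elane, whose hairpin groups overlap each other, and knockdown and control arrays overlap for the other 5 probes.

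The 5 genes lie on 4 chromosomes, Mpo on chromosome 11, Elane and Prtn3 next to each other on chromosome 10, Ctsg on chromosome 14 and Ms4a3 on chromosome 19. All 5 had an entry in the RefSeq promoter table (GRCm38.p6), which holds 250 bases before and 50 bases after each gene's start. The promoters of Mpo and Elane are shown because these genes were called, and that of Prtn3 because it adjoins Elane and was not called. Capitals mark matches, on either strand, to the core letters AGGAAG of PU.1 and AACNGT of MYB.
Mpo (chr11:87793534-87793833, + strand): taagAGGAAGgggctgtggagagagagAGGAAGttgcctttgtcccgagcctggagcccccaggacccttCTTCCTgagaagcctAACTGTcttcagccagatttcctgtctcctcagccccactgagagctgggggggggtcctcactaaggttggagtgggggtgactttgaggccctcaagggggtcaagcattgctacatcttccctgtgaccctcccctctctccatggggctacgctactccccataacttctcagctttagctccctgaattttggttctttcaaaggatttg
Elane (chr10:79886062-79886361, + strand): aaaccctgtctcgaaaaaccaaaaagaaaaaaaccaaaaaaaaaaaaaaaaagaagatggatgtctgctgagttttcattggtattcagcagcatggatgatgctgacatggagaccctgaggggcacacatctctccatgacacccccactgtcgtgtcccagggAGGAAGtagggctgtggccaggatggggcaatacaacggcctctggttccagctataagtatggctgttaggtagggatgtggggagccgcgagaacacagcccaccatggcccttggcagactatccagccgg
Prtn3 (chr10:79879417-79879716, + strand): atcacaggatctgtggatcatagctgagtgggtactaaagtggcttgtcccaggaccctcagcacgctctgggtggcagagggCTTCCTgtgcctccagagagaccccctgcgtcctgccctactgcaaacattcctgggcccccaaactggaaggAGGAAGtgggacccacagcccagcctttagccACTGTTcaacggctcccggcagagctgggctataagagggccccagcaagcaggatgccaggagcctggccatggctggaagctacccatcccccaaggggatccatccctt
PU.1 letters were found in 5 of the 5 promoters, against 35.4% of the 32851 promoters in the table. MYB letters were found in 3 of 5, those of Mpo, Prtn3 and Ctsg, against 26.1% of all. The RUNX letters TGTGGT occurred in 1, Ctsg, against 16.8% of all, and the letters TTGCNNAA of the CCAAT/enhancer-binding proteins in 1, Ms4a3, against 10.8%. The TATA letters TATAAA occurred in 1 of 5, Ctsg, on the opposite strand, against 13.6%. The letters searched do not overlap each other within the 3 sequences shown. A match is a description of the sequence, and the absence of one says only that these letters are not in this window. The PU.1 letters were present both in the 2 genes that were called and in the 3 that were not.

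Mpo, the haem peroxidase, had the largest differences among the 5 genes. On probe 1 (ILMN_1249030) the deposited intensities were 861, 972 and 1373 on the control arrays, 2624, 1591 and 2471 with Itgb3-17, and 2721 and 3338 with Itgb3-20. After normalization the log2 levels were 9.95, 10.05 and 10.45 in controls, 10.86, 10.76 and 10.82 with Itgb3-17, and 11.42 and 11.49 with Itgb3-20. The groups did not overlap, the controls being lowest and the Itgb3-20 arrays highest, and control replicate 3 was the highest control. The probe rose by 0.99 ± 0.147 (log2, standard error) over both hairpins (limma adjusted p = 0.000694).

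Probe 2 of Mpo (ILMN_2600421) rose the most. Its log2 levels were 8.61, 8.65 and 8.89 in controls, 9.87, 9.86 and 9.91 with Itgb3-17, and 10.66 and 10.58 with Itgb3-20. The 3 groups again formed separate bands, each hairpin group spanning far less than the distance to the next group. The difference of 1.53 ± 0.136, a 2.9-fold change (limma adjusted p = 3.83e-05), placed it at rank 6 of 13315 by size of rise. Probe 3 (ILMN_2925094) had log2 levels of 7.88, 7.76 and 7.49 in controls, 8.52, 8.58 and 8.53 with Itgb3-17, and 9.33 and 9.24 with Itgb3-20. It too rose without overlap, by 1.20 ± 0.14 (limma adjusted p = 0.000178), but here control replicate 3 was the lowest control, where it was the highest on probes 1 and 2.

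Probe 4 of Mpo (ILMN_2719256), the dimmest, did not follow the other 3. Its deposited intensities were 132, 132 and 131 in controls, 155, 117 and 167 with Itgb3-17, and 135 and 197 with Itgb3-20, and the Itgb3-17 arrays overlapped the controls. The log2 difference was 0.20 ± 0.165 (limma adjusted p = 0.462), with a 95% interval from -0.15 to 0.55. Array medians over all probes lay between 91.2 and 102, so this probe was dim, although it was above background on all 8 arrays. Which part of the transcript each probe binds was not analysed here.

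The rise of Mpo was called with each hairpin by itself. With Itgb3-17, 3 of the 9 probes were called higher, Mpo probes 1 to 3, against 7.22% of all tested probes. On 4 probes, these 3 and Elane, all Itgb3-17 arrays lay above all controls, as for 18.7% of all tested probes. The log2 differences of the Mpo probes were 0.66 ± 0.163 (limma adjusted p = 0.0138), 1.17 ± 0.15 (limma adjusted p = 0.000523) and 0.83 ± 0.155 (limma adjusted p = 0.00319). The call on probe 1 was lost when control replicate 1, control replicate 2, Itgb3-17 replicate 1 or Itgb3-17 replicate 2 was left out, with adjusted p-values of 0.0614, 0.0589, 0.0591 and 0.0514 (limma). With Itgb3-20, 4 of 9 were called higher, the same 3 Mpo probes and Elane, against 5.71% of all. On 8 of the 9 probes, Ms4a3 probe 2 being the exception, both Itgb3-20 arrays lay above all controls, as for 20.7% of all tested probes. The Mpo differences were 1.31 ± 0.182 (limma adjusted p = 0.000836), 1.90 ± 0.168 (limma adjusted p = 3.10e-05) and 1.57 ± 0.174 (limma adjusted p = 0.000197). Both hairpins share the 3 control arrays, so the agreement between them is not independent.

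**Figure D2:**
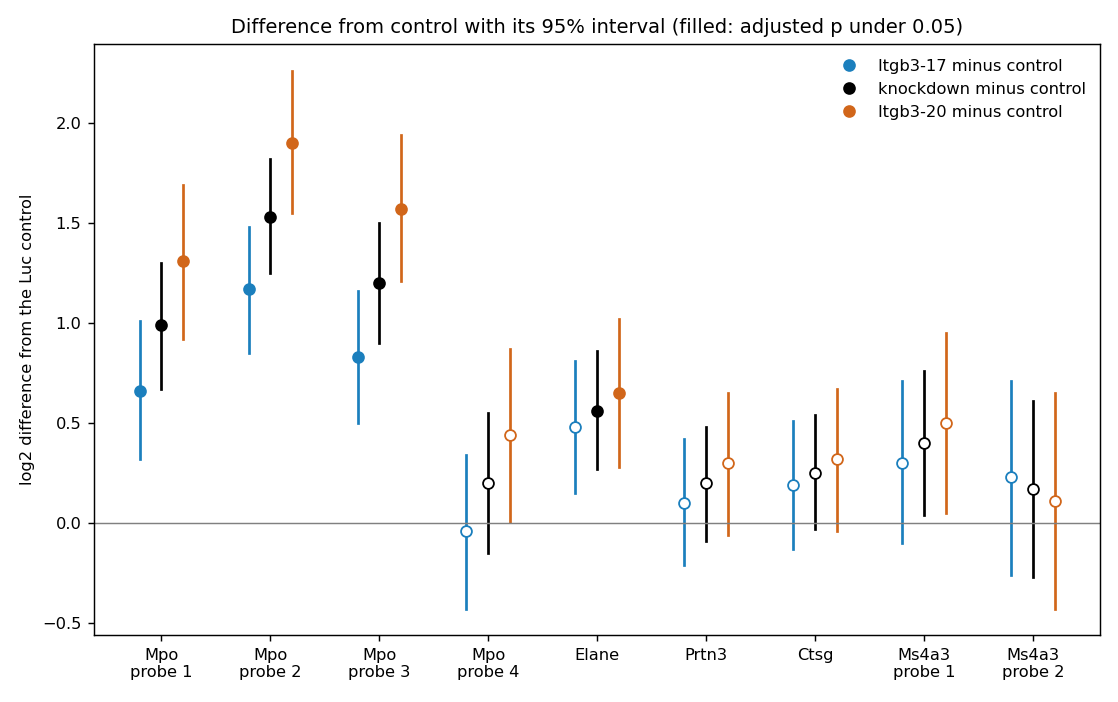
Log2 difference from the Luc control for each of the 9 probes (vertical axis), for Itgb3-17, for both hairpins together and for Itgb3-20; points are estimates, lines are 95% intervals of a single probe, and filled points have a limma adjusted p under 0.05. The intervals of Mpo probes 1 to 3 lie above 0.3 for every comparison, whereas those of Prtn3, Ctsg and Ms4a3 probe 2 reach below 0.

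Mpo levels were higher on both Itgb3-20 arrays than on any Itgb3-17 array for probes 1 to 3. The differences between the hairpins were 0.64, 0.74 and 0.74 on the log2 scale, with limma adjusted p-values of 0.127, 0.0618 and 0.0643. None of the 9 probes was called between the hairpins, 0 of 9 by limma, against 0.248% of all tested probes called higher. At an unadjusted p under 0.05, 4 of the 9 were higher with Itgb3-20, all 4 of them Mpo probes, against 5.64% of all tested probes. Elane, Prtn3, Ctsg and Ms4a3 probe 1 differed between the hairpins by 0.13 to 0.20. The 3 Mpo probes were called with no background correction, in the authors' deposited values and with a trended, robust variance, so the call between hairpins depends on these settings.

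Elane, the gene of neutrophil elastase, is read by 1 bright probe (ILMN_1221700). Its deposited intensities were 3362, 3231 and 3878 in controls, 7429, 5045 and 8072 with Itgb3-17, and 6751 and 7734 with Itgb3-20. The log2 levels were 12.19, 11.89 and 12.02 in controls, 12.44, 12.43 and 12.66 with Itgb3-17, and 12.62 and 12.75 with Itgb3-20. All knockdown arrays lay above all controls, while the hairpin groups overlapped each other. Elane rose by 0.56 ± 0.14 on the log2 scale, a 1.48-fold change (limma adjusted p = 0.0118). Without control replicate 2 the difference was 0.49 and the adjusted p 0.0646 (limma).

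By hairpin, Elane was called only with Itgb3-20 at the settings used, and this split of calls does not show a difference between hairpins. The log2 difference was 0.65 ± 0.174 with Itgb3-20 (limma adjusted p = 0.0252) and 0.48 ± 0.156 with Itgb3-17 (limma adjusted p = 0.0552), and Itgb3-20 minus Itgb3-17 was 0.18 (limma adjusted p = 0.771). The Itgb3-17 call was made under 10 of its 18 alternative settings, including fits of the 6 control and Itgb3-17 arrays alone, with and without a replicate block (limma adjusted p = 0.0496 and 0.0455). The Itgb3-20 call was lost without control replicate 2, control replicate 3, Itgb3-20 replicate 4 or Itgb3-20 replicate 5, with adjusted p-values of 0.0829, 0.0505, 0.104 and 0.0793 (limma).

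Prtn3, the gene of proteinase 3, adjoins Elane on chromosome 10 and did not pass the test. The log2 levels of its probe (ILMN_2758029) were 12.95, 12.72 and 12.79 in controls, 12.95, 12.84 and 12.98 with Itgb3-17, and 13.09 and 13.14 with Itgb3-20. The Itgb3-17 arrays lay within or just above the control range, and both Itgb3-20 arrays lay above all controls. The log2 difference was 0.20 ± 0.134 (limma adjusted p = 0.353, 95% interval -0.09 to 0.48), 0.10 with Itgb3-17 and 0.30 with Itgb3-20. Its deposited intensities, 5444 to 10390, were among the 26 brightest of the 45281 probes on every array, on arrays whose brightest probe read 15499 to 20115. Whether the brightness of this probe limits its response was not tested.

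Ctsg, the gene of cathepsin G, was similar in size. Its log2 levels (probe ILMN_1220236) were 11.82, 11.82 and 12.05 in controls, 12.06, 12.05 and 12.15 with Itgb3-17, and 12.18 and 12.25 with Itgb3-20. Control replicate 3 reached the lowest Itgb3-17 array, and the other 2 controls lay below every knockdown array. The difference was 0.25 ± 0.135 (log2, limma adjusted p = 0.222, 95% interval -0.03 to 0.54).

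Ms4a3, which encodes a 4-pass membrane protein typical of granulocyte-macrophage progenitors, varied most among the controls. On its brighter probe (ILMN_2719732) the log2 levels were 8.88, 8.69 and 8.06 in controls, 8.90, 8.83 and 8.82 with Itgb3-17, and 9.03 and 9.05 with Itgb3-20. The knockdown arrays were close together, controls 1 and 2 lay near them, and control replicate 3 lay apart below. The difference was 0.40 ± 0.171 (log2, limma adjusted p = 0.126) and fell to 0.16 without control replicate 3. The dim second probe (ILMN_1250529) differed by 0.17 ± 0.207 (limma adjusted p = 0.632), and its sign was not stable, at -0.0026 without control replicate 3.

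The normalization set how large the shifts of these bright probes were. Both the quantile setting and scaling to the median gave positive differences for Elane, Prtn3, Ctsg and Ms4a3 probe 1, but scaling each array to the median of all probes gave 1.02 for Elane, 0.63 for Prtn3, 0.69 for Ctsg and 0.68 for Ms4a3 probe 1. That scaling moved the median of all tested probes to 0.149 and made 94.4% of all calls higher, against 53.2% after quantile normalization. Under it 6 of the 9 probes were called, Prtn3 (limma adjusted p = 0.0393) and Ctsg (limma adjusted p = 0.0433) being added. The 99th percentile of the deposited intensities was 649 to 787 on the control arrays, 674 to 1060 with Itgb3-17, and 691 and 928 with Itgb3-20, so the spread of intensities moved with the groups in part. Its part in the results was not tested. Prtn3 was also called with no background correction (0.20, limma adjusted p = 0.0497), and Ctsg with no background correction (0.25, limma adjusted p = 0.0206), in the authors' deposited values (0.23, limma adjusted p = 0.0426) and when scaled to the median of the tested probes (0.49, limma adjusted p = 0.045). Ms4a3 probe 1 was called in the authors' deposited values (0.33, limma adjusted p = 0.0478) and with a trended, robust variance (0.40, limma adjusted p = 0.041).

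**Figure D3:**
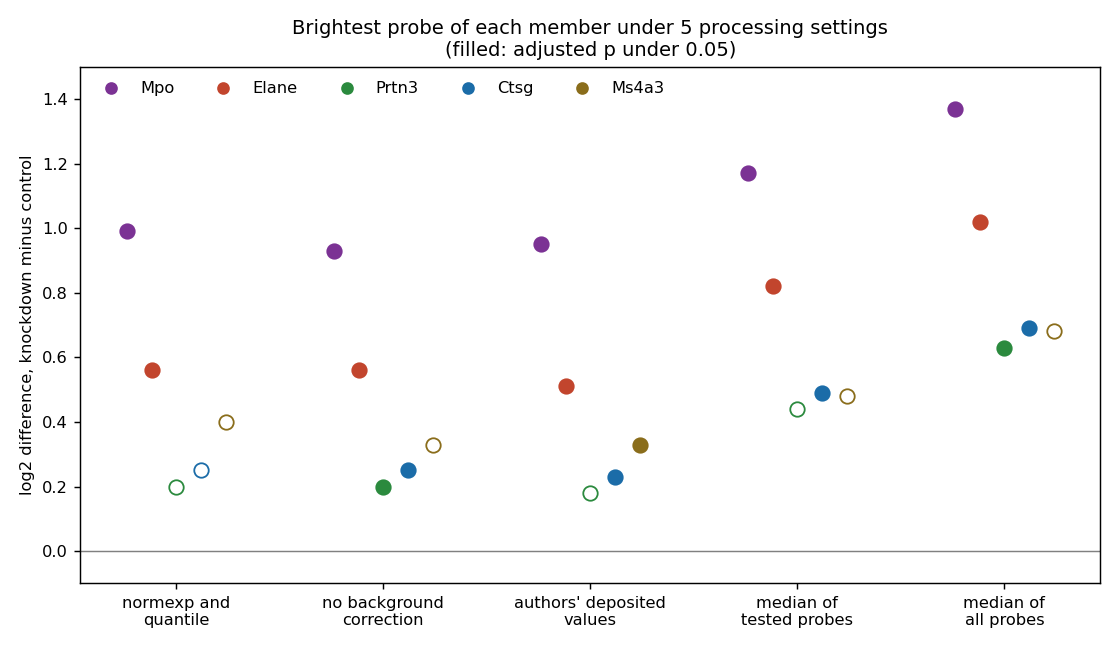
Log2 difference, knockdown minus control (vertical axis), of the brightest probe of each gene under 5 ways of processing (horizontal axis); filled points have a limma adjusted p under 0.05. Mpo and Elane are filled under all 5, and every point shifts upward when arrays are scaled to a median.

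The brightest probes of the genes differed in how far they moved, which a ratio taken within each array shows with less dependence on scaling. The log2 ratio of Mpo probe 1 to Prtn3 was -3.00, -2.68 and -2.34 on the control arrays, -2.09, -2.08 and -2.16 with Itgb3-17, and -1.67 and -1.65 with Itgb3-20. All knockdown arrays lay above all controls, by 0.74 on average over the 5 knockdown and 3 control arrays. The mean difference was 0.68 for Mpo to Ctsg, 0.37 for Elane to Prtn3 and 0.30 for Elane to Ctsg. Each of these 4 gave p = 0.0179 in a two-sided exact permutation test over the 56 assignments of arrays, the smallest p it can give. Benjamini-Hochberg adjustment over the 10 pairs of genes made this 0.0446, a value that rests on all 4 lying at that smallest p. The 4 pairs are built from the same 4 probes, so they are not separate evidence, and the test treats the 5 knockdown arrays as 1 group. Under scaling to the median of all probes the 4 mean differences were 0.70, 0.63, 0.39 and 0.32.

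The choice of Mpo probe mattered. The mean difference to Prtn3 was 1.28 with probe 2 and 0.95 with probe 3, again with all knockdown arrays above all controls, and -0.03 with the dim probe 4, with overlap. The spread among probes of Mpo was thus as wide as that between genes, and these ratios compare probes.

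The probes of the neighbours Elane and Prtn3 moved unequally, in a ratio that was tight among controls at -0.76, -0.83 and -0.77 and lay between -0.51 and -0.31 on the knockdown arrays. For Elane to Ctsg the gap was narrow, with control replicate 1 at 0.37 and the lowest knockdown arrays at 0.38. Mpo to Elane overlapped between groups (0.38, exact permutation p = 0.161, adjusted 0.268), and so did Prtn3 to Ctsg (-0.06, exact permutation p = 0.571, adjusted 0.635). Left out in turn, single arrays moved the Mpo to Prtn3 value between 0.59 and 0.91, Mpo to Ctsg between 0.59 and 0.76, Elane to Prtn3 between 0.33 and 0.40 and Elane to Ctsg between 0.22 and 0.41. The Mpo to Elane value was 0.21 without control replicate 1 and 0.54 without control replicate 3, and Prtn3 to Ctsg was -0.15 without control replicate 3 and 0.03 without control replicate 1. These ratios were chosen after the levels had been seen, and a ratio within an array shows unequal change, not that either gene was constant.

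**Figure D4:**
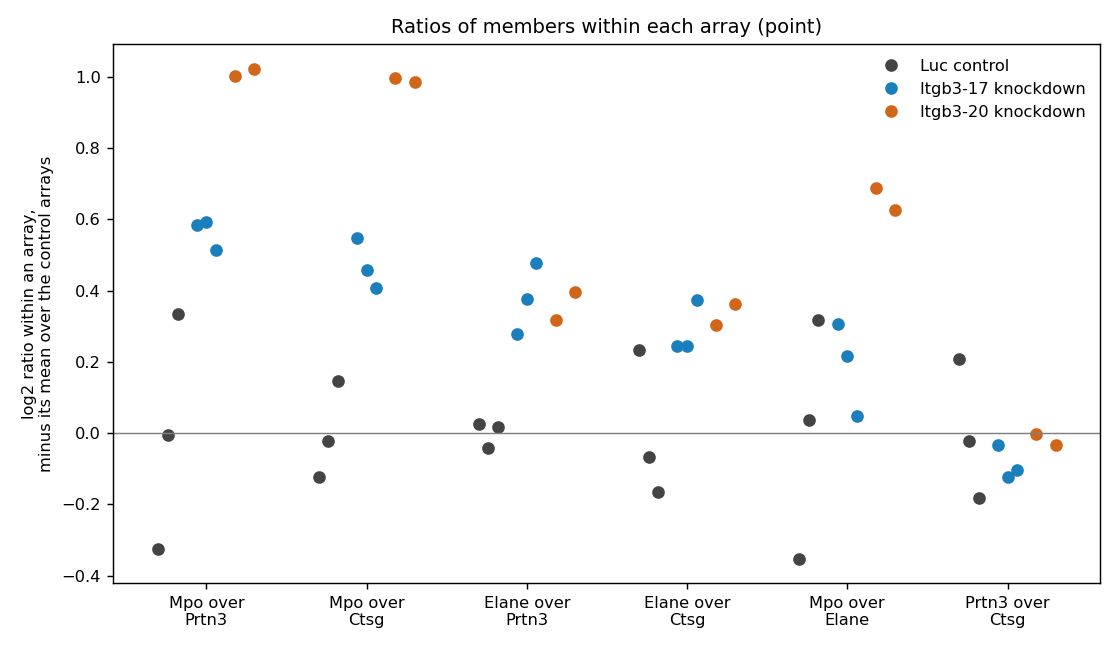
Log2 ratio of 2 genes within each array, minus the mean of the same ratio over the Luc control arrays (vertical axis), for 6 pairs; points are arrays, coloured by group. Ratios of Mpo or Elane to Prtn3 or Ctsg lie above all controls on every knockdown array, narrowly for Elane over Ctsg, and the last 2 pairs overlap.

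Other enzymes of primary granules and lysosomes did not share a direction. Of 14 tested genes in this list, 4 were called higher and 1 lower in knockdown minus control, where 8.93% of all tested probes were called higher and 7.84% lower, and the list's median log2 difference was -0.02. Lyz1, a lysozyme gene, rose by 1.58 ± 0.145 (log2, limma adjusted p = 3.83e-05), from 7.94 in controls to 9.05 with Itgb3-17 and 9.99 with Itgb3-20. Its close copy Lyz2, named after its values were seen to complete the count, was also called higher, and the probes may not tell the copies apart. Hexa, a lysosomal hexosaminidase subunit, rose by 0.81 ± 0.161 (limma adjusted p = 0.00345) and Man2b1, a lysosomal mannosidase, by 0.59 ± 0.138 on 1 probe (limma adjusted p = 0.00836), its other probe giving 0.23 (limma adjusted p = 0.332). Ctsa, the lysosomal carboxypeptidase cathepsin A, fell by 0.74 ± 0.199 (limma adjusted p = 0.0177), with overlapping groups. Its probe was dim and above background on 6 of 8 arrays. The Ctsa call was lost under median scaling, with no filter and without control replicate 1. Ctsc, whose product activates the 3 serine proteases, was not called (-0.37, limma adjusted p = 0.123), nor was Srgn, the proteoglycan core that binds granule proteins (0.02, limma adjusted p = 0.951), though a dimmer Srgn probe was called lower (-0.55, limma adjusted p = 0.0455). Bpi was above background on 0 of 8 arrays, and Prss57 had no probe among those named.

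Genes that serve the maturation of myeloperoxidase moved both ways. Of 8 tested genes of its folding and of haem synthesis, 3 were called higher and 1 lower, with a median of 0.25. The shares over all tested probes were 8.93% higher and 7.84% lower. The haem enzymes Urod, Alad and Alas1 rose by 0.70 ± 0.148, 0.59 ± 0.16 and 0.51 ± 0.139 (limma adjusted p = 0.00494, 0.0195 and 0.02), each without overlap. Calr, encoding the chaperone calreticulin that binds the myeloperoxidase precursor, fell by 1.30 ± 0.202 over both hairpins (limma adjusted p = 0.000819). It gave -1.93 with Itgb3-20 (limma adjusted p = 0.000574) and -0.66 with Itgb3-17, the latter not called (limma adjusted p = 0.0624). The hairpin difference of -1.27 was called (limma adjusted p = 0.031). Its log2 levels were 7.14, 6.80 and 7.06 in controls, 6.36, 6.39 and 6.26 with Itgb3-17, and 4.50 and 5.63 with Itgb3-20, where the first of these was not above background. Without control replicate 1 or control replicate 2, 2 of the 8 genes were called.

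Among 10 tested inhibitors of granule and lysosomal proteases 1 was called higher and 2 lower, with a median of 0.09, against 8.93% higher and 7.84% lower over all tested probes. Serpinb1a, which encodes an inhibitor of elastase, proteinase 3 and cathepsin G, fell by 0.62 ± 0.14 (limma adjusted p = 0.00672). Its log2 levels were 9.52, 9.61 and 9.48 in controls, 8.63, 8.78 and 8.87 with Itgb3-17, and 8.93 and 9.22 with Itgb3-20, so every knockdown array lay below every control. Under median scaling its difference was -0.33 and no longer called. Stfa2 and Cstb, both inhibitors of cysteine cathepsins, changed by 0.73 ± 0.169 and -0.50 ± 0.142 (limma adjusted p = 0.00797 and 0.0237), with overlapping groups. Stfa2 gave 1.29 with Itgb3-20 and 0.17 with Itgb3-17, the latter not called, and its dimmer probe gave 0.44 over both (limma adjusted p = 0.142). Cstb was not called under median scaling (-0.09, limma adjusted p = 0.842), nor without control replicate 1, control replicate 2, Itgb3-17 replicate 2 or Itgb3-20 replicate 4 (-0.48, -0.43, -0.48 and -0.48). Without control replicate 1, 1 of the 10 inhibitors was called.

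Of 8 tested transcription factors that act on primary granule genes, 1 was called higher and 1 lower, with a median of 0.02. Over all tested probes the shares were 8.93% higher and 7.84% lower. Cebpe, a factor of granulocyte maturation, rose by 0.51 ± 0.133 on its brightest probe (limma adjusted p = 0.0156), while its other 3 tested probes gave 0.35, 0.05 and -0.46 and were not called. Cbfb, the partner of RUNX1, fell by 0.54 ± 0.144 on 1 probe (limma adjusted p = 0.017), and its other probe gave -0.17. Gfi1, a repressor of Elane, differed by 0.03 (limma adjusted p = 0.922). Spi1, the gene of PU.1, differed by 0.55 (limma adjusted p = 0.0704) and Myb by 0.20 (limma adjusted p = 0.484). Cebpa was above background on 0 of 8 arrays. Neither Cebpe nor Cbfb was called with the probes of a gene averaged, without control replicate 2 (limma adjusted p = 0.0578 and 0.0861) or without Itgb3-20 replicate 4 (0.0505 and 0.0645). Cebpe was also not called without control replicate 1 (limma adjusted p = 0.0601), nor Cbfb under median scaling (-0.26, limma adjusted p = 0.575).

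**Figure D5:**
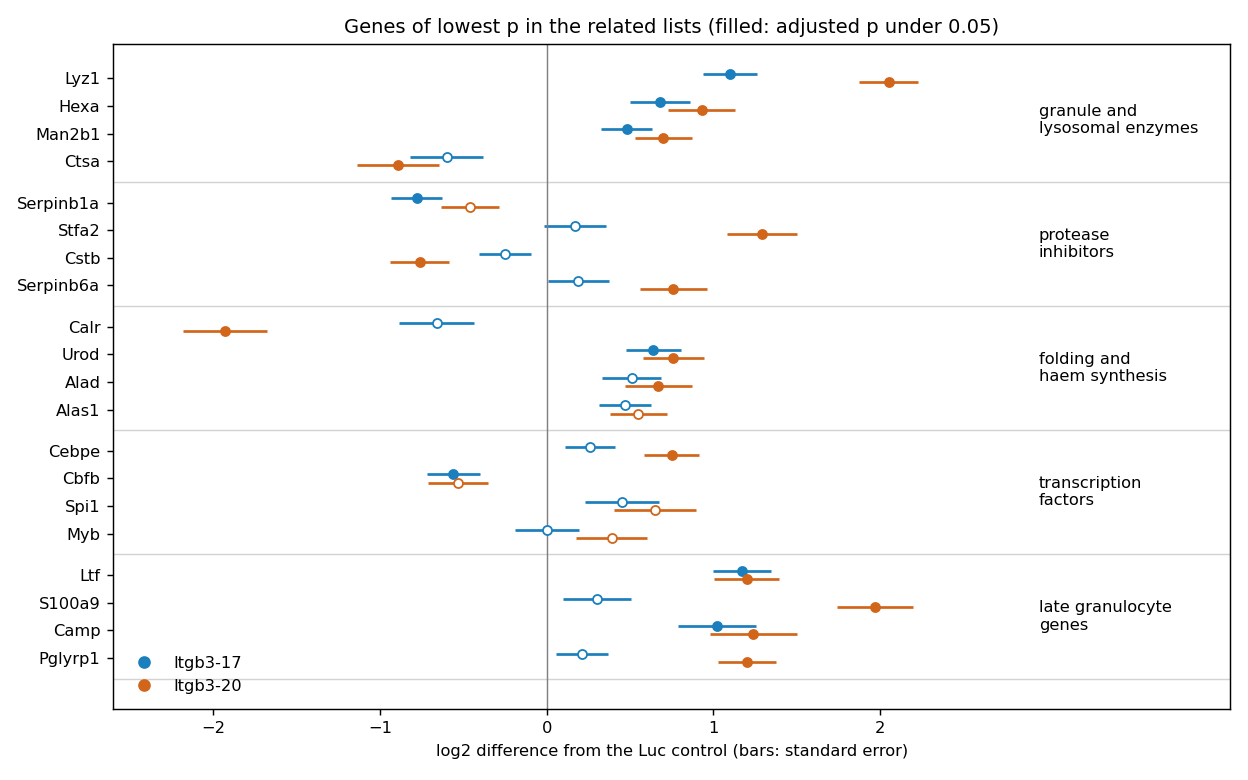
Log2 difference from the Luc control (horizontal axis, bars are standard errors) for the 4 genes of lowest p in each of 5 related lists, by hairpin; filled points have a limma adjusted p under 0.05. Lyz1 lies furthest right among the granule enzymes and Calr furthest left of all; Ltf was not above background on the control arrays, so its value is no fold.

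Genes of later granulocyte stages were examined because their proteins belong to other granules. Of 13 tested genes of this list 5 were called higher and 0 lower, with a median of 0.12, where 8.93% of all tested probes were called higher and 7.84% lower. S100a9, a calcium-binding protein of neutrophils and monocytes, rose by 1.14 ± 0.183 (limma adjusted p = 0.000968), Camp, the cathelicidin, by 1.13 ± 0.211 (limma adjusted p = 0.00226) and Pglyrp1, a peptidoglycan-binding protein, by 0.70 ± 0.14 (limma adjusted p = 0.0033). Camp read near background in controls, at deposited intensities of 111, 107 and 121, and 133 to 187 on the knockdown arrays. Its call was lost with no filter (limma adjusted p = 0.0512). A dimmer Pglyrp1 probe gave 0.19 (limma adjusted p = 0.532). With the knockdown arrays as a single group, S100a9 and Pglyrp1 were not called (limma adjusted p = 0.093 and 0.104). Ltf, lactoferrin, was above background on the 5 knockdown arrays and on none of the 3 controls. It passed the filter only through the arrays where it was high, so its p-value is not given and its place in the count carries that limit. Cd177, named after its values were seen, completes the 5. Of the 13 genes 3 were called higher in Itgb3-20 minus Itgb3-17, against 0.248% of all tested probes. They were S100a9 (1.67, limma adjusted p = 0.00622), Pglyrp1 (1.00, limma adjusted p = 0.0179) and S100a8, named after its values were seen. With Itgb3-17 alone Pglyrp1 gave 0.21 and S100a9 0.30, neither called (limma adjusted p = 0.429 and 0.366). The summed intensity of the list after normalization was 10560 to 10667 in controls, 8606 to 9806 with Itgb3-17, and 11033 to 13139 with Itgb3-20, so the sum was below the controls with 1 hairpin and above them with the other. The part of such cells in the Mpo and Elane results was not tested.

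Markers of the sort and of other cells were also read. Kit was above background on 8 arrays and differed by -0.29 (limma adjusted p = 0.243), whereas Cd34 was above background on 1 of 8. The CD34+ gate reads protein and this probe reads RNA, and how well the probe responds was not tested. Of the genes read by the Fc gamma antibody gate, Fcgr2b rose by 0.51 ± 0.137 (limma adjusted p = 0.0181) on the brightest of 4 tested probes. Its dimmer probes gave 0.26, 0.14 and 0.42 and were not called. Fcgr3 differed by 0.43 (limma adjusted p = 0.0691). Fcgr3 rose with Itgb3-20 (1.04 ± 0.194, limma adjusted p = 0.00427) but not with Itgb3-17 (-0.18, limma adjusted p = 0.564), and the hairpins differed by 1.22 (limma adjusted p = 0.0106). Of 9 tested progenitor receptors 1, Fcgr2b, was called, against 8.93% of all tested probes called higher, with a list median of -0.12. The Fcgr2b call was lost without control replicate 1, control replicate 3 or Itgb3-20 replicate 4. The leukaemia genes Hoxa5 and Hoxa9 fell by 1.31 ± 0.163 and 0.81 ± 0.228 over both hairpins (limma adjusted p = 0.000323 and 0.0222), and a second Hoxa9 probe fell by 1.07 (limma adjusted p = 0.0033). Hoxa5 gave -0.60 with Itgb3-17 (limma adjusted p = 0.0385) and -2.02 with Itgb3-20 (limma adjusted p = 9.39e-05), a hairpin difference of -1.41 (limma adjusted p = 0.00622). The first Hoxa9 probe gave -0.44 with Itgb3-17, not called (limma adjusted p = 0.284), and -1.19 with Itgb3-20 (limma adjusted p = 0.014). Its hairpin difference of -0.75 was not called (limma adjusted p = 0.284). The call of the first Hoxa9 probe over both hairpins was lost under median scaling (-0.46, limma adjusted p = 0.356), with no filter and with the knockdown arrays as a single group. It was also lost without control replicate 1, 2 or 3 (-0.85, -0.85 and -0.76) or Itgb3-20 replicate 4 (-0.48). Itgb3, the target, was above background on 0 of 8 arrays, at log2 levels of 4.28, 4.28 and 4.22 in the 3 groups, so the knockdown could not be checked here.

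Few markers of other lineages were measured. Erythroid markers gave 0 tested genes of 6 with a probe. In knockdown minus control 0 were called of 1 megakaryocyte, 5 monocyte and macrophage, 1 B cell, 2 T and NK cell, 2 dendritic cell and 2 stromal genes tested (limma, on the brightest probe of each gene). There 0 of these also passed an unadjusted p under 0.05. Of the 2 dendritic cell genes, 1 passed that unadjusted threshold with Itgb3-17 and 2 with Itgb3-20, without being called. Between the hairpins H2-Ab1 of antigen-presenting cells was called higher with Itgb3-20 on its brightest probe (0.96, limma adjusted p = 0.031). On a dimmer probe Cd79b of B cells and H2-Ab1 were called lower in knockdown minus control (-0.80 and -0.69, limma adjusted p = 0.00417 and 0.00718). The summed monocyte and macrophage intensity was 122 to 146 in controls, 118 to 133 with Itgb3-17 and 127 to 138 with Itgb3-20. Of 2 tested genes of the Ms4a family besides Ms4a3, Ms4a6d gave -0.13 and Ms4a8a -0.14 (limma adjusted p = 0.603 and 0.679). Of 6 tested eosinophil, basophil and mast cell genes 1 was called higher, Cpa3, a mast cell carboxypeptidase, against 8.93% of all tested probes. Cpa3 was above background on the 5 knockdown arrays and on none of the controls. It passed the filter only through the arrays where it was high, so its p-value is not given and the count carries that limit. Prg2, eosinophil major basic protein, fell by 1.14 ± 0.166 with Itgb3-17 (limma adjusted p = 0.00109) and gave 0.36 with Itgb3-20 (limma adjusted p = 0.24), a hairpin difference of 1.51 (limma adjusted p = 0.00622). Of 3 tested cytotoxic granule genes 1 was called higher, Prf1, perforin (0.98 ± 0.213, limma adjusted p = 0.00567), against 8.93% of all tested probes.

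By Pearson correlation over the 8 arrays, the genes whose level was most like that of Mpo, among 8184 candidates, were Rdh12 (0.983), Aldh3b1 (0.974) and Pde1b (0.972). For Elane they were Txndc15 (0.979), Nacc2 (0.967) and Fgd2 (0.961), and for Ctsg Hexa (0.982), Ecm1 (0.979) and Git2 (0.97). For Prtn3 they were Cyb5r1 (0.983), Snx25 (0.981) and Cldn15 (0.941), and for Ms4a3 Prpf38a (0.975), Mms19 (0.957) and Ccdc144b (0.951). The mean of the 5 standardised genes was most like Chaf1b (0.986), Tgfb1 (0.975), Nlrx1 (0.975), Prmt7 (0.972) and Rdh12 (0.972). After median scaling the 3 values for Prtn3 were 0.857, 0.779 and 0.859 and those for Mpo 0.972, 0.984 and 0.98. These values describe 8 arrays in 3 groups that share a scaling, and with so many candidates high values are found for any profile.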

How the data were processed

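The deposited table gives, per the file headers, a mean bead intensity for each probe, linear and not normalized, with a detection p-value that the authors deposited beside it. A further deposited table holds the authors' processed log2 values of the same arrays. Their method, centring and offset are not given in the sources used here, and they served as an alternative. Arrays were grouped by title.

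Intensities were background-corrected by normexp using the detection p-values, with an offset of 16, quantile normalized and put on the log2 scale (neqc, limma 3.58.1, R 4.3.3). The 13315 probes above background (detection p below 0.05) on 2 or more arrays were tested. The 8 arrays entered 1 limma model of the 3 groups (lmFit, eBayes, two-sided tests), with Benjamini-Hochberg adjustment over all tested probes and 0.05 as the threshold. The fit was tested on simulated data. The median standard error was 0.154 on the log2 scale. Intervals are for single probes and are not adjusted.

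Gene symbols came from the platform annotation. Of a listed gene with several tested probes, the brightest stood for it. The text names every probe of the 5 genes, up to 4 tested genes of lowest p in each of 17 lists (220 entries, 198 with a probe), a set of regulators, partners and sort markers whatever their value, and the 3 genes most like each member (5 for their mean). The members and lists were chosen with earlier results of these data known. Alternatives covered the background correction, scaling, filter, authors' values, variance model, array weights, arrays left out, pairing and the averaging of probes.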

Additional observations from a re-analysis of the deposited data

How the results depend on the processing

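Over the 9 probes and 4 comparisons, 573 of 621 alternative values kept their direction and side of the threshold, 11 calls were lost, 29 were gained and 8 values changed sign. The calls lost were those of Elane and Mpo probe 1 given above. Elane with Itgb3-20 also missed the threshold with array weights (limma adjusted p = 0.0567) and with only the compared groups in the fit (limma adjusted p = 0.0662). In knockdown minus control 3 to 6 of the 9 probes were called. Between the hairpins 3 probes were called with no background correction, with the authors' deposited values and with a trended, robust variance, against 0 otherwise. Sign changes were among uncalled values. Mpo probe 4 with Itgb3-17, at -0.04, was 0.40 under median scaling, 0.12 when scaled to the median of the tested probes and -0.13 to 0.06 with single arrays left out. Ms4a3 probe 2 ran from -0.0026 to 0.42 for both hairpins, from -0.20 to 0.44 with Itgb3-20 and from -0.43 to 0.20 between hairpins when arrays were left out. The Ctsg to Ms4a3 ratio went from -0.14 to 0.01 under median scaling. The cause of these changes was not tested.

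A fit with replicate number as a block over the control and Itgb3-17 arrays called 4 of the 9 probes. The same 2 groups without the replicate block also gave 4, against 3 with all 8 arrays in the fit, so the block did not change the count. Same-numbered arrays did not deviate together after quantile normalization (correlations 0.0279, -0.024 and -0.00589). With so few pairs, and with shifts of whole arrays removed by the normalization, this cannot tell whether they share an animal or a batch. Of 374 alternative values for those called genes of the lists that were named by lowest p, 331 stayed called, 43 were not, and 0 changed sign. Lyz2 and Cd177 are not among these genes. Ltf and Cpa3 are, with 17 values each that all stayed called. Both passed the filter only through the arrays where they were high, so the 331 carries that limit. Without a filter, or without control replicate 1 or Itgb3-20 replicate 4, 3 rather than 5 of the granule and lysosomal enzymes were called. Scaling each array to the median of tested probes made 60.3% of all calls higher. Low signals limit Mpo probe 4, which was above background on all 8 arrays, and signals near background limit Ms4a3 probe 2.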

Other observations

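Genes beside the members on their chromosomes were read as a further description, chosen after the data had been seen. Next to Mpo on chromosome 11, Supt4a, which encodes a transcription elongation factor, rose by 0.70 on the log2 scale (limma adjusted p = 0.00802) and Tspoap1 by 0.55 (limma adjusted p = 0.0233) in knockdown minus control. On the other side Lpo, lactoperoxidase, was not above background on enough arrays to be tested. Beyond Lpo, Mks1 gave 0.10 (limma adjusted p = 0.682). Beside the Prtn3 and Elane pair on chromosome 10, Med16, a Mediator subunit, gave 0.01 (limma adjusted p = 0.967). On the Prtn3 side of the pair Ptbp1 gave -0.41 with each hairpin and over both (limma adjusted p = 0.05 over both). Beside Ctsg on chromosome 14, Mcpt8, a basophil protease, was not above background on the control arrays and gets no value, and Gzmd, a granzyme, gave -0.01 (limma adjusted p = 0.972). These values were not recomputed under the alternative settings.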
